A study of Mus musculus with 4 samples.

Results

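The natriuretic peptide genes Nppa and Nppb, the skeletal muscle actin gene Acta1 and the ankyrin repeat gene Ankrd1 were described in 4 sham-operated mouse hearts. These 4 genes were found among 35299 loci. For each, a given interval on the mm9 build was searched, and the locus with a UCSC transcript model and the highest mean count was taken. All 4 libraries belong to 1 group, Sham, from C57BL/6J mice aged 12 weeks. Heart tissue was collected 2 weeks after sham surgery, at the site matching an infarct border, and poly(A) RNA was sequenced. The description of replicate 4 leaves out the word sham and names only an infarct border, but the title, source and treatment of that replicate say sham. The libraries carry the column names 3RL, 7LR, 8R and 12RL, which are in no label, so none of them can be matched to that replicate. The libraries held 108345923 to 160670654 reads in the table. With 1 group there is no contrast, and the values describe how strongly these genes were expressed after sham surgery and how far the hearts differed.

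Natriuretic peptides are hormones that cardiomyocytes release when the chamber wall is stretched. ANP, the product of Nppa, is made mainly in the atria of the adult heart, and BNP, the product of Nppb, is also made in the ventricles. Both act through the guanylyl cyclase receptor Npr1, while the clearance receptor Npr3 removes them. Acta1 is the main actin of skeletal muscle and is a minor partner of cardiac actin, Actc1, in the adult heart. Ankrd1 encodes a protein (CARP) that sits at the titin spring of the sarcomere and can also enter the nucleus. Transcripts of all 4 genes are widely used as markers of a loaded or injured ventricle.

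Only Acta1 held an exact match to the CArG box, the site read by the serum response factor Srf, in the bases just upstream of its start. Such a match was found in 1.47% of 32851 promoters of the same length. Near matches, such as ctttaaaagg in the Nppa window, were not searched, so other sites for Srf may be present. The 250 bases upstream of each start are shown 5′ to 3′ because these genes are compared below for moving together. They are RefSeq sequences on GRCm38.p6, a later build than that of the counts. Capitals mark matches on either strand to the TATA box (TATAAA), both GATA forms (AGATAA or TGATAA), the MCAT element (CATTCC) and the CArG box.
Nppa (chr4:148000472-148000721, plus strand): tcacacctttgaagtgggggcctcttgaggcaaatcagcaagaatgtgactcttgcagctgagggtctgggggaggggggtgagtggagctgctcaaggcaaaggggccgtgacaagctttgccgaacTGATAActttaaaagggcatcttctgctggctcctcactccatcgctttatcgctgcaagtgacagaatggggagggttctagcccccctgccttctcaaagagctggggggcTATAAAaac
Nppb (chr4:147985650-147985899, plus strand): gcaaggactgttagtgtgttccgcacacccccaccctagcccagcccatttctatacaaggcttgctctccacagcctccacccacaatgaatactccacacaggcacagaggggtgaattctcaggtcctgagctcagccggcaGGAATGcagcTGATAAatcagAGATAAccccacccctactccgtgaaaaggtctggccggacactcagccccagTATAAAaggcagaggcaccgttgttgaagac
Acta1 (chr8:123894776-123895025, minus strand): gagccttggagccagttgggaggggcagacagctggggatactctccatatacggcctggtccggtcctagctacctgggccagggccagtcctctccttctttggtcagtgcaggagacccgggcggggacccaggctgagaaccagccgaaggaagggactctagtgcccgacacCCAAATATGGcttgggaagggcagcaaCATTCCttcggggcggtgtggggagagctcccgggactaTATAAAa
Ankrd1 (chr19:36119845-36120094, minus strand): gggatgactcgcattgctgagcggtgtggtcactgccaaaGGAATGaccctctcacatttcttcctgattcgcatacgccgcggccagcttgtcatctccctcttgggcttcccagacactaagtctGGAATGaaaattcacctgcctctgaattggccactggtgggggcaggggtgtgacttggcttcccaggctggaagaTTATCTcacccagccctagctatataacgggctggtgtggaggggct

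The letters TATAAA stood upstream of Nppa, Nppb and Acta1 but not of Ankrd1, and 12.4% of all promoters hold them. Other spellings of the TATA box were not searched, and the Ankrd1 window holds the letters tatataa. Sites of the GATA form, read by factors such as Gata4, were TGATAA in Nppa, TGATAA and AGATAA in Nppb and the complement of AGATAA in Ankrd1. The shares of all promoters with TGATAA and AGATAA were 7.94% and 9.99%. CATTCC, the MCAT element read by TEAD factors, was present in Nppb, Acta1 and, in 2 copies, Ankrd1, against 12.6% of all promoters. TGANTCA, the AP-1 site, was searched on both strands and was in none of the 4 windows, against 6.75% of all. The E-box CANNTG was found in all 4 windows and is common, at 66.2%. AAGTG, part of the Nkx2-5 site, was present in Nppa only, against 40.7% of all, and 1 of its 2 copies there overlapped an E-box, as the TGATAA of Nppb did.

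Nppa was the steadiest of the 4 genes between hearts. Its normalised read counts, which are reads divided by 1 size factor per library, were 18378 (3RL), 15578 (7LR), 18866 (8R) and 18029 (12RL). The mean was 17713 ± 1464 (SD, n = 4). Library 7LR was the lowest and the other 3 lay close together, within 1.05-fold of each other. The highest library was 1.21-fold above the lowest, near the median of 1.25-fold over 13251 loci that have a UCSC model and a mean of 50 or more.

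Nppb was high in 1 heart. Its normalised counts were 15537 (3RL), 15388 (7LR), 28645 (8R) and 12101 (12RL), with a mean of 17918 ± 7325 (SD, n = 4). Library 8R was 1.84-fold above the next library and 2.37-fold above the lowest. Without 8R, the remaining hearts lay within 1.28-fold of each other. By the Dixon ratio, which compares such a gap with the whole range, Nppb reached 0.792 and did not pass the critical value for 4 samples. None of the 4 genes had a library apart by that measure (0 of 4), against 3.17% of loci apart upward and 1.4% apart downward.

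Acta1 separated the hearts into a higher and a lower pair. The normalised counts of the higher pair were 37297 (3RL) and 50459 (8R), and those of the lower pair were 18333 (7LR) and 20095 (12RL). The mean was 31546 ± 15237 (SD, n = 4). The highest library was 2.75-fold above the lowest, and without 8R the span was still 2.03-fold.

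Ankrd1 was the most abundant of the 4 and ranked 87 of 35299 loci by mean normalised count. Its counts were 126219 (3RL), 165303 (7LR), 202065 (8R) and 117923 (12RL), with a mean of 152877 ± 38757 (SD, n = 4). Libraries 8R and 7LR were the higher ones, so the order of the hearts was not that of Acta1, which was lowest in 7LR. The highest library was 1.71-fold above the lowest, and 1.40-fold without 8R.

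**Figure D1:**
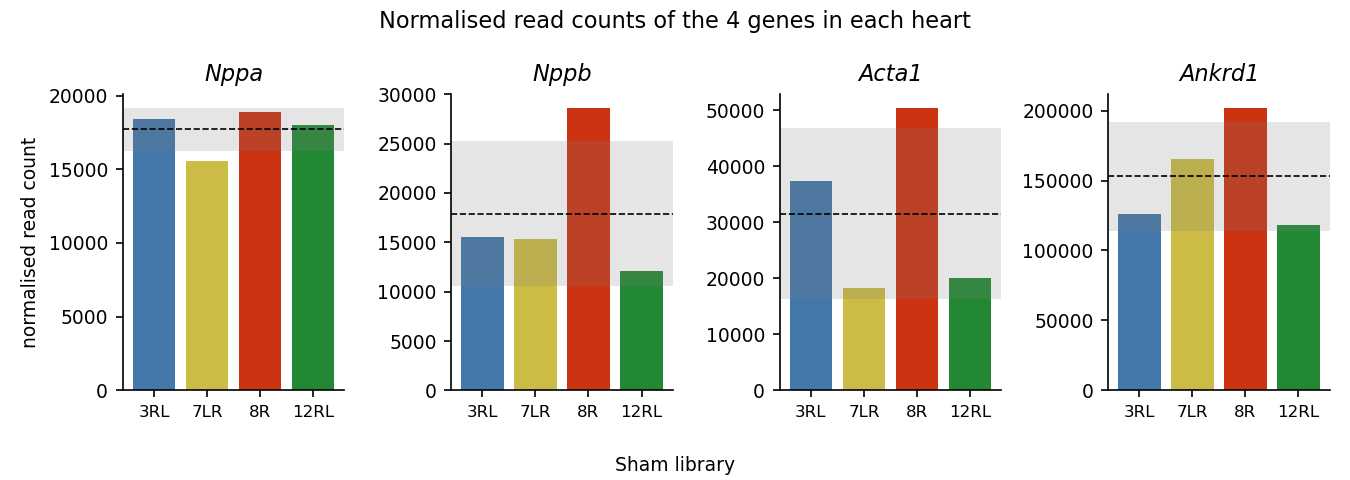
Normalised read counts (vertical axes, each with its own scale from 0) of the 4 genes in the Sham libraries 3RL, 7LR, 8R and 12RL (horizontal axes). Bars are single libraries, the dashed line is the mean and the grey band is 1 SD to either side (n = 4); Nppa varies by 1.21-fold between hearts and Acta1 by 2.75-fold.

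Counting error is small beside these differences. The recovered reads behind the values ran from 7675 for Nppb in 12RL to 177742 for Ankrd1 in 8R, which gives a counting CV of 1.14% at most and 0.237% at least. The CV between hearts was 8.27% for Nppa, 40.9% for Nppb, 48.3% for Acta1 and 25.4% for Ankrd1. In bulk tissue, fewer cells of a type and less RNA per cell cannot be told apart.

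Nppb, Acta1 and Ankrd1 varied more between hearts than most loci of like level, and Nppa did not. Of the 500 loci with a UCSC model nearest in mean, 100% had a smaller SD of log2(value + 1) than Nppb, 99.8% than Acta1 and 96.2% than Ankrd1. For Nppa the share was 55.8%. The SDs of log2 values were 0.12 for Nppa, 0.53 for Nppb, 0.70 for Acta1 and 0.36 for Ankrd1, beside a median of 0.14 over the 13251 loci. A highest library 2-fold or more above the lowest was found for Nppb and Acta1, 2 of the 4 genes, against 4.62% of those loci. At 1.5-fold or more, Ankrd1 joined them, which made 3 of the 4 genes against 17.3% of loci. Since the genes were picked with earlier results of these data known, these shares are a description.

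**Figure D2:**
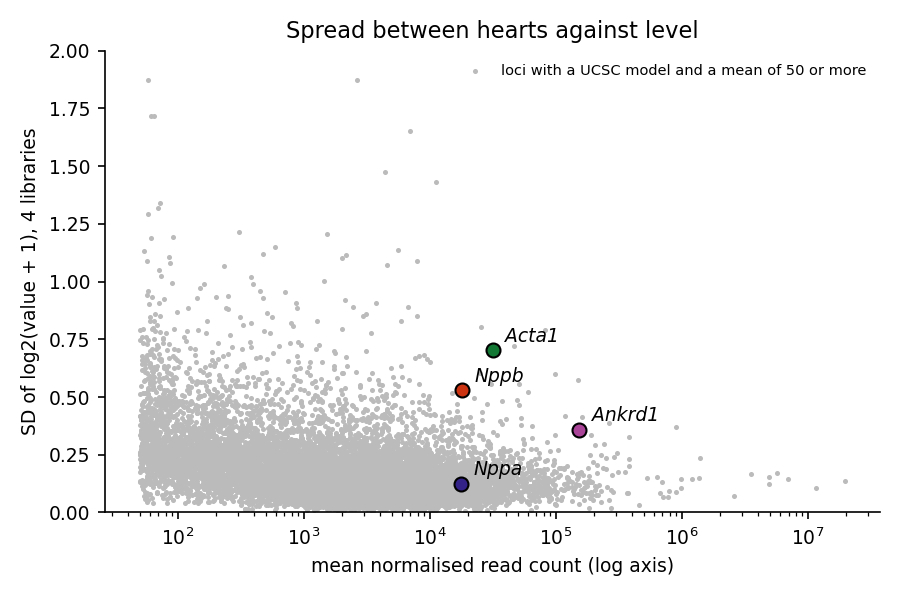
SD of log2(value + 1) over the 4 libraries (vertical axis) against mean normalised read count (horizontal log axis), with 1 grey point per locus that has a UCSC model and a mean of 50 or more; 5 loci lie above the plotted range. Acta1 at 0.70 and Nppb at 0.53 stand above nearly all loci of like level, while Nppa at 0.12 lies within them.

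All 4 genes had their highest count in 8R, but this was a common pattern. The lowest library was 7LR for Nppa and Acta1 and 12RL for Nppb and Ankrd1. Over the 13251 loci, 30.6% were lowest in 7LR and 27.7% in 12RL, and 13.2% were both highest in 8R and lowest in 12RL. The share highest in 8R was 39.8%, and among the 3491 of them with a spliced length of 600 to 2000 bases the share was 59.1%. Libraries of this series deviated by transcript length, with short transcripts high in 8R, so each gene was set beside loci of its own length. In 8R the log2 deviation from the 4-library mean was 0.76 for Nppb, where loci of like length had a median of 0.21. For Acta1 it was 0.81 against 0.14, and for Ankrd1 it was 0.44 against 0.11. For Nppa it was 0.09 against 0.18, so that Nppa in 8R lay below the loci of its length. In 7LR the deviation of Acta1 was -0.65 against -0.10, and that of Ankrd1 was 0.15 against -0.09.

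When this trend with length was removed, Nppb kept 1.92-fold between the highest and lowest library, Acta1 2.33-fold and Ankrd1 1.54-fold, each with 8R highest. Nppa kept 1.15-fold, but its order changed, with 12RL highest and 8R lowest. Nppa was also no longer highest in 8R when libraries were scaled to equal totals. The place of 8R in Nppa thus depended on the scaling, while Nppb, Acta1 and Ankrd1 were highest in 8R under all 5 other scalings run. The lowest library of Ankrd1 was 3RL once the trend was removed.

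**Figure D3:**
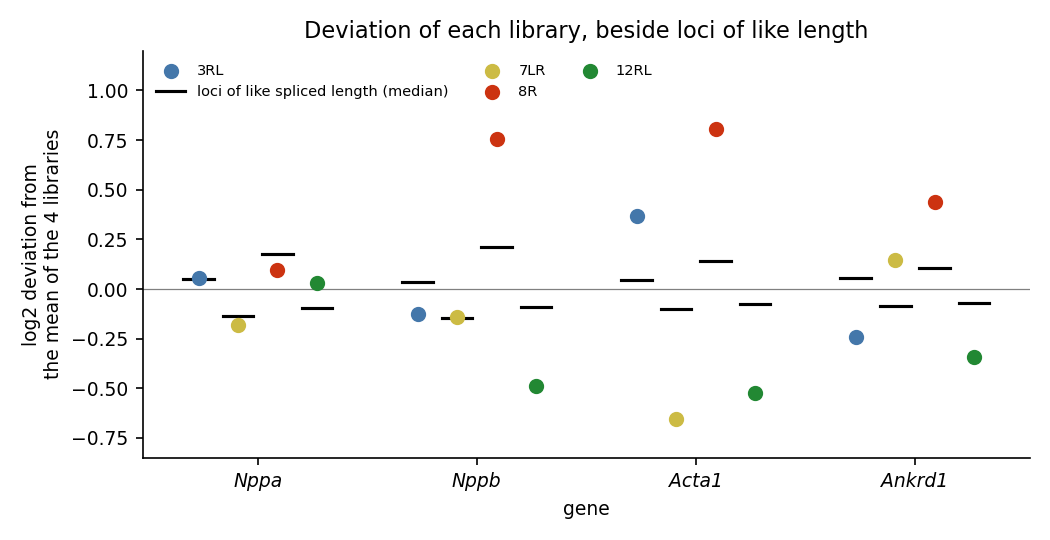
Log2 difference between each library and the 4-library mean (vertical axis) for each gene (horizontal axis). Points are the libraries and black bars are the medians of loci of like spliced length in the same library; in 8R the points of Nppb (0.76), Acta1 (0.81) and Ankrd1 (0.44) lie above their bars and that of Nppa (0.09) lies below.

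Per length of the UCSC model, Ankrd1 stood above the other 3 genes in every heart, and those 3 did not separate. With all exons of the locus as length, Ankrd1 stayed highest, but Acta1 was above Nppb, and Nppb above Nppa, in 4 of 4 libraries. Normalised counts per kb of the longest spliced UCSC model were 86616 ± 21959 for Ankrd1, 27025 ± 11049 for Nppb, 22014 ± 10633 for Acta1 and 21366 ± 1766 for Nppa (SD, n = 4). Ankrd1 was above Nppb by a mean log2 ratio of 1.72 ± 0.27 and was higher in 4 of 4 libraries. Above Nppa the ratio was 1.99 ± 0.39 and above Acta1 2.07 ± 0.63, also in 4 of 4 libraries. For these 3 pairs the exact two-sided sign-flip permutation test gave p = 0.125, the smallest that 4 libraries allow, and 0.25 after Benjamini-Hochberg adjustment over 6 pairs. Nppb was above Nppa in 3 of 4 libraries, with a log2 ratio of 0.26 ± 0.50 (exact p = 0.375, adjusted p = 0.45). Nppb was above Acta1 in 3 of 4 libraries (log2 ratio 0.35 ± 0.41, exact p = 0.25, adjusted p = 0.375). Nppa and Acta1 each led in 2 libraries (log2 ratio 0.08 ± 0.61, exact p = 0.875, adjusted p = 0.875).

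The balance of the transcripts of the 2 hormones differed between hearts. Per kb, the ratio of Nppb to Nppa was 1.06 (3RL), 1.24 (7LR), 1.90 (8R) and 0.839 (12RL). Library 8R thus had the most Nppb relative to Nppa, and 12RL the least. Which of the 2 was higher depended on the length used: with all exons of the locus as length, Nppb was higher in 4 of 4 libraries. The counts themselves, with no length, gave ratios of 0.845 (3RL), 0.988 (7LR), 1.52 (8R) and 0.671 (12RL).

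The size of a locus on the map bears on these levels, since reads were counted per locus and not per transcript. Nppb lies at chr4:147359273-147367936 and Nppa at chr4:147374210-147380693 on mm9, both on the plus strand and 6273 bases apart. Acta1 lies at chr8:126415667-126418636 and Ankrd1 at chr19:36184841-36195013, both on the minus strand. Acta1 had 1 model, a UCSC model of 7 exons and 1433 spliced bases. The other 3 loci also held longer models assembled from the reads.

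The Nppa locus reached well past the known gene. Its UCSC model has 3 exons and 829 spliced bases, while 2 assembled models began 645 bases before it and ended 4517 bases after it, so that its exons together covered 5991 bases. On the other strand lies Clcn6, a gene for an endosomal chloride transporter. Exons of all models at the Clcn6 locus covered 4669 of those bases (77.9%), including 152 of the 829 bases of the Nppa UCSC model. Clcn6 had 1250, 1545, 1285 and 1365 normalised counts in 3RL, 7LR, 8R and 12RL, and 7LR, its highest library, was the lowest for Nppa. The strand setting of the counting is not given in the sources used here, so reads of the 2 genes may not be told apart on the shared bases. The part of those reads in the level of Nppa was not tested.

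Nppb held 2 UCSC models of 3 exons, of 660 and 663 spliced bases, and 4 assembled models. The assembled ones began up to 735 bases further upstream, and 1 ran 6629 bases past the UCSC end, toward Nppa. Ankrd1 had a UCSC model of 9 exons and 1765 bases and an assembled model of 9 exons and 4058 bases, longer by 679 bases at the 5′ end and 1614 at the 3′ end. Assembled exons covered all 250 bases before the UCSC start in Nppa and Ankrd1, 145 in Nppb and 0 in Acta1. The printed upstream sequences were taken from RefSeq starts, which lay 24 bases upstream of the UCSC start in Nppa, 39 in Acta1 and 0 in Ankrd1, and 1 base inside the UCSC model in Nppb. With all exons of the locus as its length, the level per kb was 2957 ± 244 for Nppa, 5939 ± 2428 for Nppb, 37673 ± 9551 for Ankrd1 and unchanged for Acta1. By that measure Acta1 came second, above Nppb and Nppa in 4 of 4 libraries, so the order below Ankrd1 depends on which exons are transcribed.

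**Figure D4:**
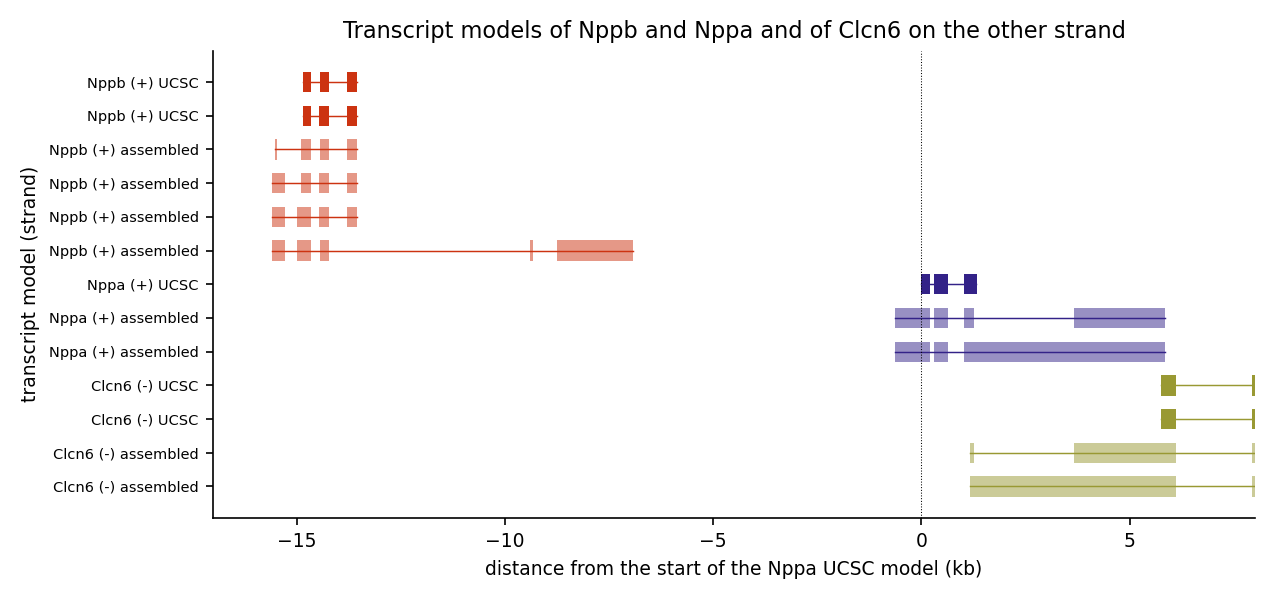
Transcript models of Nppb and Nppa (plus strand) and Clcn6 (minus strand), drawn by distance in kb from the start of the Nppa UCSC model (horizontal axis), 1 model per row. Boxes are exons, lines are introns, full colour is a UCSC model and pale colour an assembled one. Exons of the Nppa and Clcn6 loci, over all models of each, share 4669 bases.

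Acta1 was a small part of the summed Acta1 and Actc1 transcripts in these hearts. Per kb, Actc1 had 999211 ± 163869 normalised counts (SD, n = 4), and Acta1 made up 2.32% of the sum of both (3RL), 1.49% (7LR), 2.90% (8R) and 1.58% (12RL). Library 8R held the largest share and 7LR the smallest. Both encode nearly the same protein, so their coding sequences were compared. They differ at 155 of 1131 coding bases (identity 86.3%), and the longest run without a difference is 29 bases. No stretch of 100 bases, the length of a read, was shared between the transcripts (0 of 1347 windows), so a read that matches 1 transcript exactly does not match the other exactly. The first 90 coding bases are shown from GENCODE transcripts (GRCm38), with the differing bases in capitals.
Acta1: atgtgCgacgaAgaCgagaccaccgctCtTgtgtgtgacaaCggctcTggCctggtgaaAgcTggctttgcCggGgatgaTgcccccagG
Actc1: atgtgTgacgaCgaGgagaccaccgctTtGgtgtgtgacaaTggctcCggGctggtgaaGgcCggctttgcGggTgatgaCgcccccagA

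Among other actin genes, the cytoplasmic ones differed most between hearts. Of 7 genes of actins and their regulators, all had a mean of 10 or more, and 1 differed by 2-fold or more, against 9.8% of 14954 loci with a UCSC model at that mean. That gene was Actg1, a cytoplasmic actin, with 27949 (3RL), 26572 (7LR), 40047 (8R) and 18099 (12RL) (2.21-fold). Actb, the other cytoplasmic actin, had the same highest and lowest library (50785 in 8R and 26677 in 12RL). Acta2, the actin of smooth muscle, had 14552 (3RL), 8691 (7LR), 10101 (8R) and 9432 (12RL), so 3RL stood highest. Srf ran from 12576 in 7LR to 17539 in 8R, and Mkl1, which encodes the actin-sensing partner of Srf, from 1523 to 1691.

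Among the enzymes and receptors of the natriuretic peptides, Npr1 and Npr2 were nearly level between hearts and Npr3 spanned 1.59-fold. Of 8 genes of this system, 7 had a mean of 10 or more and 0 of these reached 2-fold, where 9.8% of loci did, so the count is near that share. Corin, the protease that activates ANP, was highest in 12RL, with 33745 (3RL), 36413 (7LR), 35546 (8R) and 44934 (12RL). The locus of Furin, a protease that cleaves BNP, also holds the neighbouring gene Fes and ran from 19618 to 22293. The receptor Npr1 lay between 4494 and 4639 (1.03-fold), and Npr2, the receptor of the related peptide CNP, between 10516 and 10651 (1.01-fold). Npr3, the clearance receptor, had 1799 (3RL), 2053 (7LR), 1966 (8R) and 2862 (12RL). Library 12RL, which had the least Nppb, was highest for Corin and Npr3. Prkg1, a kinase activated by the cGMP that these receptors make, spanned 1.49-fold, with 7LR highest and 8R lowest. Nppc, the gene of CNP, was barely detected, with 4.56 to 6.82 normalised counts.

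Partners of Ankrd1 at the titin spring and the Z-disc ranged from steady to more variable than Ankrd1 itself. Of 10 such genes, 1 reached 2-fold, near the 9.8% of loci at that mean. This was the related Ankrd2, which had only 22.1 (12RL) to 64.8 (8R) normalised counts (2.94-fold). Ankrd23, another member of that family, shares its locus with Ankrd39 and had 42426 (3RL), 30365 (7LR), 49260 (8R) and 28379 (12RL), a span of 1.74-fold. The locus was lowest in 12RL, as Ankrd1 was, but had more counts in 3RL than in 7LR, unlike Ankrd1. Ttn, the titin gene, had 706034 (3RL), 1092008 (7LR), 701734 (8R) and 1105123 (12RL), a span of 1.57-fold with 8R the lowest. Trim63, a muscle ubiquitin ligase, had 27373 (3RL), 31109 (7LR), 42758 (8R) and 24330 (12RL), a span of 1.76-fold. Trim63 was highest in 8R and second in 7LR, the order seen in Ankrd1. Csrp3, Tcap and Fhl2, which encode Z-disc and titin-associated proteins, varied by 1.27-fold, 1.22-fold and 1.25-fold.

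Other genes of the hypertrophy and stress program included Gdf15 and Hspb1, which were high in 8R. Of 17 symbols, 16 were placed at 15 loci, and 2 loci, Gdf15 and Hspb1, reached 2-fold, where 9.8% of the 14954 loci did. Gdf15, a stress-induced secreted factor, had 128 (3RL), 244 (7LR), 498 (8R) and 126 (12RL) (3.95-fold). Hspb1, a small heat shock protein gene, had 20460 (3RL), 15130 (7LR), 40996 (8R) and 23888 (12RL) (2.71-fold). Both were highest in 8R, as were 10 of the 15 loci, beside 39.8% of the 13251 loci and 59.1% of those of 600 to 2000 spliced bases. Cryab, another small heat shock protein gene, ran from 171893 in 7LR to 264180 in 8R. Ctgf, a matricellular gene, had 5107 (3RL), 9412 (7LR), 8882 (8R) and 7231 (12RL), so 3RL was lowest. Rcan1, a target of calcineurin signalling, ran from 7682 to 10869. Atp2a2, the calcium pump of the sarcoplasmic reticulum, varied by 1.11-fold and the merged locus of the myosin genes Myh6 and Myh7 by 1.21-fold, so a shift between those myosins could not be read.

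Apart from Hand2, the measured transcription factors of heart promoters varied by 1.08-fold to 1.47-fold. Of 9 symbols, 7 were placed (not Nkx2-5 or Mef2c), and 1 reached 2-fold, a count near the 9.8% of the 14954 loci. That gene was Hand2, with 3174 (3RL), 4550 (7LR), 6553 (8R) and 4828 (12RL) (2.06-fold). Gata4 ran from 14218 to 16954, Tead1 from 35070 to 43080, Mef2a from 25073 to 32674 and Yap1 from 9948 to 10724. No difference between these factors and the 4 genes was tested.

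**Figure D5:**
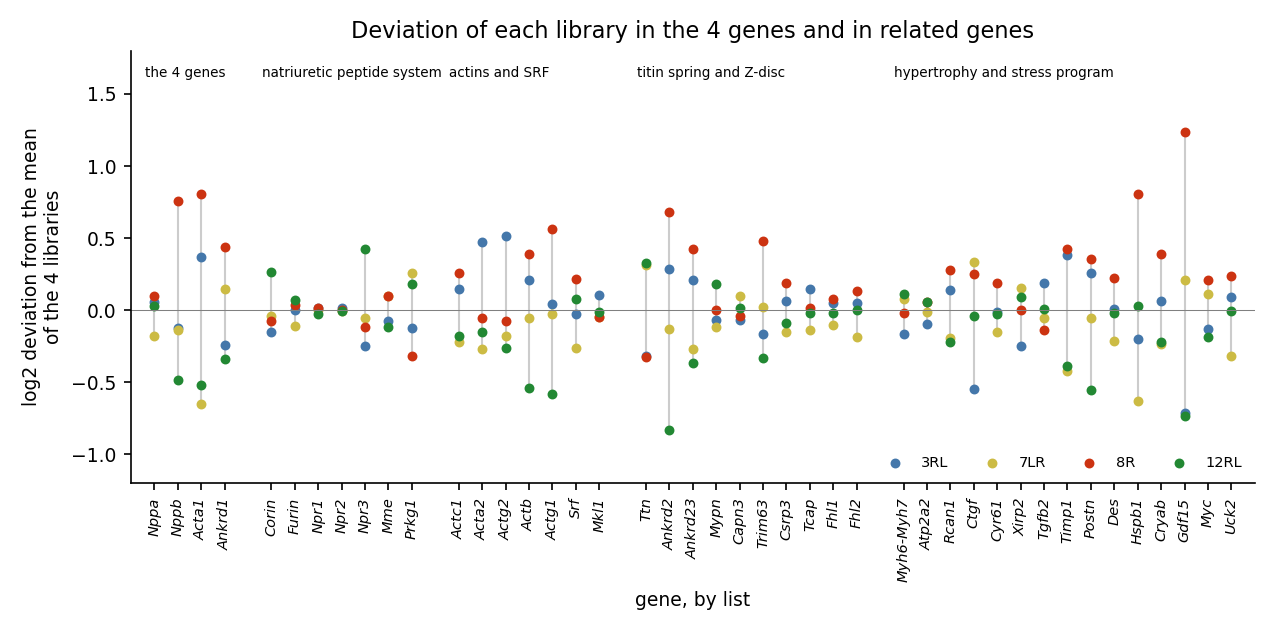
Log2 difference between each library and the 4-library mean (vertical axis) for the 4 genes and, by list, for related genes with a mean of 10 or more (horizontal axis). Each point is a library and each grey line runs from the lowest to the highest; the natriuretic peptide system spans at most 1.59-fold (Npr3), while Gdf15 spans 3.95-fold.

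Markers of other tissues were set beside the 4 genes. The atrial markers Myl7, Myl4, Sln and Bmp10 summed to 191 normalised counts (3RL), 187 (7LR), 189 (8R) and 587 (12RL). Sln and Bmp10 were at 0 in 7LR, and Bmp10 also in 8R. Library 12RL had the most atrial transcripts, and its Nppa count of 18029 lay between those of the other libraries. The part of atrial transcripts in the level of Nppa was not tested. The 9 placed skeletal muscle markers summed to 341 (3RL), 320 (7LR), 432 (8R) and 509 (12RL), with Myh4 at 0 in all libraries. This sum was lowest in 7LR, as Acta1 was, but was highest in 12RL, where Acta1 was at 20095. The skeletal muscle markers did not all share this order. Tnnt3, Tnnc2, Mylpf and Pvalb were lowest in 7LR, while Actn3 and Myh2 were highest there. Myh1 was lowest in 8R and Atp2a1 in 3RL. The ventricular markers Myl2, Myl3 and the merged loci of Tnni3 and Myh6 varied by 1.21-fold to 1.28-fold. Their mean normalised counts ran from 528341 (Tnni3 locus) to 4932752 (Myh6 locus), so transcripts of ventricular muscle were abundant in every library.

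Transcripts of the 2 placed erythroid loci were highest in 8R, while the erythroid symbol Hbb-b1 was not placed. The 2 erythroid loci, the alpha globin locus Hba-a1, which also holds Hba-a2, and Alas2, summed to 27748 (3RL), 42582 (7LR), 88912 (8R) and 40715 (12RL). The locus of the globins alone had 83406 in 8R against at most 38496 in the others. Of the leukocyte markers, Ptprc had 1132 (3RL), 856 (7LR), 1033 (8R) and 1203 (12RL), and the locus of Lyz2 and Lyz1 had 14106 (3RL), 10031 (7LR), 15233 (8R) and 9638 (12RL). The Cd68 locus also holds other genes, among them Eif4a1, so the sum over the 3 leukocyte loci was not read as leukocyte content. The 5 fibroblast genes summed to 148299 (3RL), 118620 (7LR), 136042 (8R) and 98757 (12RL). The 3 endothelial genes summed to between 79215 (8R) and 110676 (3RL), and the 3 smooth muscle genes to between 10133 (8R) and 13132 (3RL). Of these endothelial and smooth muscle genes, only Kdr and Myh11 were themselves lowest in 8R. Pecam1 and Tagln were lowest in 7LR, and Cdh5 and Cnn1 in 12RL. The part of blood content in the high Nppb, Acta1 and Ankrd1 of 8R was not tested.

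The loci whose pattern over the 4 libraries lay nearest to each gene were found by the root mean square difference of centred log2 values. Nearest to Nppb were Chrna1 (0.04), Nab2 (0.05) and Gpr132 (0.07). Of these Nab2, a corepressor of the Egr factors, was well expressed, with 1348 (3RL), 1294 (7LR), 2407 (8R) and 962 (12RL). Nearest to Ankrd1 were Ednrb, the endothelin B receptor (0.04), an unnamed locus at chr8:25546359-25553154 (0.04) and Mmrn1 (0.04). Ednrb had 2785 (3RL), 3582 (7LR), 4251 (8R) and 2433 (12RL). Acta1 had no neighbour as close: the nearest were an unnamed locus at chr16:18776940-18778353 (0.12), Tbx15 (0.16) and an unnamed locus at chr7:130605826-130611500 (0.17). Nearest to Nppa were Grpel2 (0.0016), Trp53inp2 (0.0024) and Slc35a4 (0.0083). These loci were picked from a large table over only 4 libraries, and for Nppa, Nppb and Ankrd1 none of the 3 loci remained when the trend with length was removed.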

How the data were processed

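Poly(A) RNA of 4 Sham hearts was measured. The deposited table holds signal values, which are read counts per locus divided by the authors by 1 size factor per library. The submitters' processing notes name DESeq, HTSeq 0.5.4p2, Cufflinks 2.0.2 and TopHat2 2.0.5, without their order, and build mm9. How reads were assigned to loci, strand included, is not given in the sources used here. All values were whole multiples of 1 step within 0.001, so whole reads were recovered, 108345923 to 160670654 per library.

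Exon positions came from deposited transcript models, some with UCSC identifiers; the libraries behind the assembled ones are not stated. The 4 genes were taken by interval. Of 85 other symbols, 46 were placed where strand, genomic span (within 1% or 100 bases) and a neighbouring gene matched the GRCm38 reference. A further 34 were placed by the chain of exon and intron lengths of a UCSC model, a rule added after the files were seen, and 5 were not placed. Both rules gave the same locus for all 41 symbols that both placed. No coordinate was converted. The interval and the chain of exons gave the same locus for all 4 genes.

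Levels are described as values per library with mean and SD. Spread used log2(value + 1), which understates differences of low loci. Named were the 4 genes, genes of the lists, and for each gene the 3 loci most like it among loci with a UCSC model, a mean of 50 or more and an SD at least 0.5 times its own. The genes, lists and alternatives were chosen with earlier results of these data known. The design text states 4 biological replicates and names no animals, so each library was taken as a separate heart. The p-values test whether the mean log2 ratio of a pair of genes over these libraries differs from no difference. Alternatives were TMM scaling (edgeR 4.0.16, R 4.3.3), median of ratios, equal totals, removal of the trend with length, pseudocounts, minimum means and leaving out each library. The rest was computed with scipy 1.17.1, pandas 2.3.3 and numpy 2.4.6 under Python 3.11.15, and was tested on simulated data.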

Additional observations from a re-analysis of the deposited data

Results flagged for a closer look

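Of 77 loci of the 4 genes and of the lists with a mean of 10 or more, 5 had 1 library far from the other 3 by the Dixon ratio. Chance alone gives this in about 1 of 20 groups. Over the 13251 loci with a UCSC model and a mean of 50 or more, 3.17% were apart upward and 1.4% downward. The count of 5 is near these shares, and none of the 5 was Nppa, Nppb, Acta1 or Ankrd1. The atrial light chain gene Myl7 had 118 normalised counts in 12RL, against at most 12.5 in the others, and Myl4 had 460 there, against at most 184. Actn3, a skeletal muscle gene, had 20.5 in 7LR, against at most 14.2. Myh11, the smooth muscle myosin gene, had 6279 in 8R, against at least 8689. Pecam1, an endothelial gene, had 27875 in 3RL, against at most 22705.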

How the results depend on the processing

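Mean levels of the 4 genes moved by less than 1 SD under every scaling and with all loci of the interval summed (19085 for Nppa, unchanged for the other 3). The same held with each library left out, but with 4 values it must hold, so it shows no stability. The log2 span from lowest to highest library was 0.28 for Nppa and ran from 0.065 (without 7LR) to 0.28 when 1 library was left out. For Nppb it was 1.24 and ran from 0.36 (without 8R) to 1.24. Leaving out a library can only narrow a span or keep it. With all exons of the locus as length, the level per kb was 2957 for Nppa, 5939 for Nppb and 37673 for Ankrd1. The ratio of 8R to the next library for Nppa, 1.03, turned to 0.943 with equal table totals, 0.958 with equal nuclear totals and 0.866 after removal of the length trend. The share of loci of like level with a smaller spread than Nppa was 37.0% and 48.8% with these equal totals. The scalings were planned, but recomputing this share and the ratio of 8R to the next library under them was chosen after seeing the data. At a minimum mean of 10, 1 of 10 titin list loci, 2 of 2 atrial and 3 of 6 skeletal muscle markers reached 2-fold. The share over loci with a UCSC model was 9.8% at that mean and 4.62% at 50. At a minimum mean of 50, 0 of 9 titin list loci and 1 of 1 atrial markers reached 2-fold. Without a minimum, 4 of 4 atrial and 5 of 9 skeletal muscle markers did. Of these 9, 1 was at 0 in all libraries, and no share over all loci was computed without a minimum. Fewer genes enter at 50 and lower genes without a minimum by construction, and for the rest the cause was not tested. Of 174 values recomputed, 122 under planned and 34 under added alternatives stayed within these limits. Some of them had to, such as the means with a library left out. No paired analysis was possible because all libraries are of the group Sham. Depth limits only the low markers, such as Bmp10 and Nppc.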

Other observations

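Among markers of the supporting cells, Col3a1 and Col1a1, fibrillar collagen genes, differed by over 2-fold between these hearts. Col3a1 had 44691 (3RL), 29780 (7LR), 32836 (8R) and 14291 (12RL) normalised counts (3.13-fold), and Col1a1 had 21094, 13033, 16969 and 9157 in the same libraries (2.30-fold). Col1a2, also a fibrillar collagen gene, did not reach 2-fold. It had 25169 (3RL), 20082 (7LR), 25318 (8R) and 15258 (12RL) (1.66-fold). Dcn, a proteoglycan gene of fibroblasts, varied by 1.12-fold and had 53691 in 12RL, above 3RL and 7LR. Pdgfra, a fibroblast receptor gene, varied by 1.29-fold and was highest in 12RL, at 6360. Postn, a matrix gene of activated fibroblasts, ran from 3842 in 12RL to 7214 in 8R. Library 12RL thus had the lowest counts of Col3a1, Col1a1, Col1a2 and Postn but not of Dcn and Pdgfra. Of the 13251 loci with a UCSC model and a mean of 50 or more, 27.7% were lowest there. The endothelial genes Cdh5 and Kdr were highest in 3RL, at 45157 and 37644.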
